A study of Mus musculus with 8 samples.

Results

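The axon guidance genes described here are the semaphorins of classes 3 to 7, the plexins, Nrp1 and Nrp2, the slits and robos, Ntn1, Ntn4, the Unc5 genes, Dcc, Neo1 and the ephrins, found in the table by their gene symbols. The count table held 54 of them among 50600 genes, and 44 of them passed a filter (10 counts or more in 2 or more of the 8 libraries) that 14497 genes passed in all, and were tested. RNA was sequenced from a mouse malignant peripheral nerve sheath tumor (MPNST) line, NF1-MET, which carries Nf1 fl/ko; lox-stop-lox MET tg/+; Plp-creERT tg/+, a Met amplification and a spontaneous Cdkn2a deletion, and in which Cre is driven by a promoter of the Schwann lineage. The NF1-MET;sgP53 line was made from it with a lentiviral CRISPR guide against Trp53 and puromycin selection, so it shares all these alleles. Cells of both lines were given vehicle (DMSO) or 100 nM capmatinib, a MET kinase inhibitor, for 24 h, with 2 libraries in each of the 4 groups. Each genotype is 1 line, so p53 loss and any other way in which the lines differ cannot be told apart. The labels call the libraries biological replicates, and by the methods of the study the cells of a line were plated in wells and given drug or vehicle in duplicate, so p-values measure the spread between such duplicates of 1 line.

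Guidance cues were named for steering growing axons. They also act on migrating neural crest, Schwann cells, vessels and tumor cells. Semaphorins signal through plexins: the secreted class 3 proteins mostly need a neuropilin as co-receptor, whereas the membrane-bound classes bind plexins directly, and Sema7a, held in the membrane by a lipid anchor, binds Plxnc1. Class B plexins can form complexes with MET itself. Slits bind robos, netrins bind Dcc, Neo1 and the Unc5 receptors, and ephrins bind Eph receptors on a touching cell, with signals passing in both directions.

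The unit of level is counts per M counts of a library after TMM scaling (CPM), 1 value for each of the 2 libraries of a group, and levels of different genes are compared only per kb of annotated exon. A change was called at an adjusted p under 0.05 in edgeR's quasi-likelihood test, Benjamini-Hochberg adjusted over all genes tested, and every adjusted p below comes from this test. Total counts lay between 30.1 M and 42.8 M, which leaves little counting error for genes above 1 CPM and a large one for those near the filter. The targeted gene, Trp53, was lower in NF1-MET;sgP53 (97.5 and 100.0 CPM in vehicle, 68.0 and 68.8 CPM in capmatinib) than in NF1-MET (182 and 193 and 126 and 128 CPM), as counted over the whole transcript and not at the edited site. The share of counts taken by Gm42418, a gene that overlaps ribosomal RNA sequence, ranged from 1.11% to 13.1% and differed between replicates. Of the Schwann lineage markers, 5 of 10 passed the filter and their summed level was 3.06 to 3.81 CPM with vehicle and 4.63 to 4.84 CPM with capmatinib in NF1-MET, and 2.21 to 2.88 CPM, then 4.49 to 4.59 CPM in NF1-MET;sgP53, with Sox10, the defining factor of the lineage, at a mean of 0.14 CPM or less in each group. Mbp was called higher in both lines and Fabp7 in NF1-MET;sgP53, where S100b was called lower, from 0.145 and 0.491 to 0.0851 and 0.0826 CPM. Mbp was not called in NF1-MET without vehicle replicate 2, and in the sgP53 line Fabp7 and S100b were not called without vehicle replicate 2 or capmatinib replicate 2, nor S100b without capmatinib replicate 1. None of 6 endothelial markers, 1 of 6 immune markers, 1 of 4 epithelial markers, 4 of 8 neuronal markers and 4 of 5 fibroblast markers passed. The endothelial, immune and epithelial lists summed to at most 1.93 CPM in any library, with 2, 4 and 0 of their markers at 0 in every library. The fibroblast markers summed to 2830.3 to 2904 CPM with vehicle and 15594 to 15844 CPM with capmatinib in NF1-MET, and to 3719 to 3741 CPM and 15513 to 15564 CPM in NF1-MET;sgP53. The rise of that sum was Col1a1, since Thy1 also rose but stayed under 5 CPM, while Pdgfra fell in both lines, in NF1-MET from 418 and 417 to 327 and 324 CPM, and Dcn was called lower in NF1-MET, though not without vehicle replicate 1 or capmatinib replicate 2. Of the 4 neuronal markers tested, 3 rose and 1 fell in each line, and the list, led by Map2, Tubb3 and Stmn2, summed to 59.9 to 60.9 CPM with vehicle and 112 to 114 CPM with capmatinib in NF1-MET, and to 54.3 to 56.4 CPM and 137.6 to 137.9 CPM in NF1-MET;sgP53. These summed levels moved with capmatinib, and their part in the results was not tested. In bulk RNA, fewer cells of a type and less RNA per cell cannot be told apart.

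Both lines expressed a few guidance genes at high levels and many at low ones. In NF1-MET with vehicle, Plxnb2, a plexin that binds class 4 semaphorins, had the highest level per length, at a mean of 91.1 CPM per kb. It was followed by Sema7a at 65.7, the netrin receptor Unc5b at 42.0, Sema3a at 33.9, Efnb2 at 31.3 and Nrp2 at 30.2 CPM per kb. With capmatinib, Plxnb2 remained first at 104 CPM per kb, Plxna1 stood second at 50.5 after 21.6 CPM per kb with vehicle, and Sema7a stood seventh at 21.4 CPM per kb. In NF1-MET;sgP53 Plxnb2 and Sema7a also led with vehicle, at 89.2 and 76.1 CPM per kb. No test was run on the order of levels.

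The 10 genes that did not pass the filter leave gaps in the set. Unc5d, Robo4, Sema5b and Dcc, the main attractive netrin receptor, had 0 counts in every library, which allows up to 3 counts in each. Robo3, Sema4d, Plxnb3, Sema4f, Slit1 and Sema3g had at most 8 counts in any library, so Sema4d, the best known ligand of Plxnb1, was at or near 0 here. Nearest the filter were Sema3g outside it, with a second-highest count of 6, and Slit3 inside it, with 12.

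Capmatinib changed most of the tested guidance genes, and more of them rose than fell. In NF1-MET, 24 of 44 rose (54.5%) and 11 fell (25%), where over all genes tested 35.5% rose and 34.7% fell. In NF1-MET;sgP53, 26 rose (59.1%) and 11 fell (25%), against 34.2% and 33.4% of all genes. Changes of at least 2-fold made up a larger share than among all genes in both directions. In NF1-MET, 12 members rose (27.3%) and 8 fell (18.2%) by at least 2-fold, against 11.5% and 5.35% of all genes. In NF1-MET;sgP53, 11 rose (25%) and 8 fell (18.2%) by that much, against 10.4% and 5.02%. In absolute terms the members' median log2 fold change was 0.89 for NF1-MET, where that of all genes was 0.41. For NF1-MET;sgP53 these medians were 0.83 and 0.40. Each line was tested on its own 4 libraries. Of the 44 members, 24 were called higher in both, 10 lower in both, 4 in 1 line alone and 6 in neither. The median log2 fold change over the 44 was 0.26 (0.0020 over all genes) for NF1-MET and 0.33 (0.0049) for NF1-MET;sgP53. The counts depend in part on scaling. With library totals in place of TMM factors, the median over all genes moved from 0.0020 to -0.18 on the log2 scale in NF1-MET, where 18 members were then higher and 15 lower. In the sgP53 line it moved from 0.0049 to -0.12, with 20 members higher and 12 lower. The calls lost with library totals were those of Efna4, Neo1, Nrp2, Plxnb1, Plxnb2 and Sema3b in NF1-MET and of Nrp2, Ntn1, Plxna3, Plxnb2, Robo2 and Sema3b in the other line, and in DESeq2's Wald test those of Efna4, Robo1, Sema3e and Slit3 and of Ntn1, Robo1 and Sema4a. Over all genes the split went from 5140 higher and 5029 lower to 3508 and 6381 in the former, and from 4963 and 4841 to 3260 and 4933 in the latter.

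**Figure D1:**
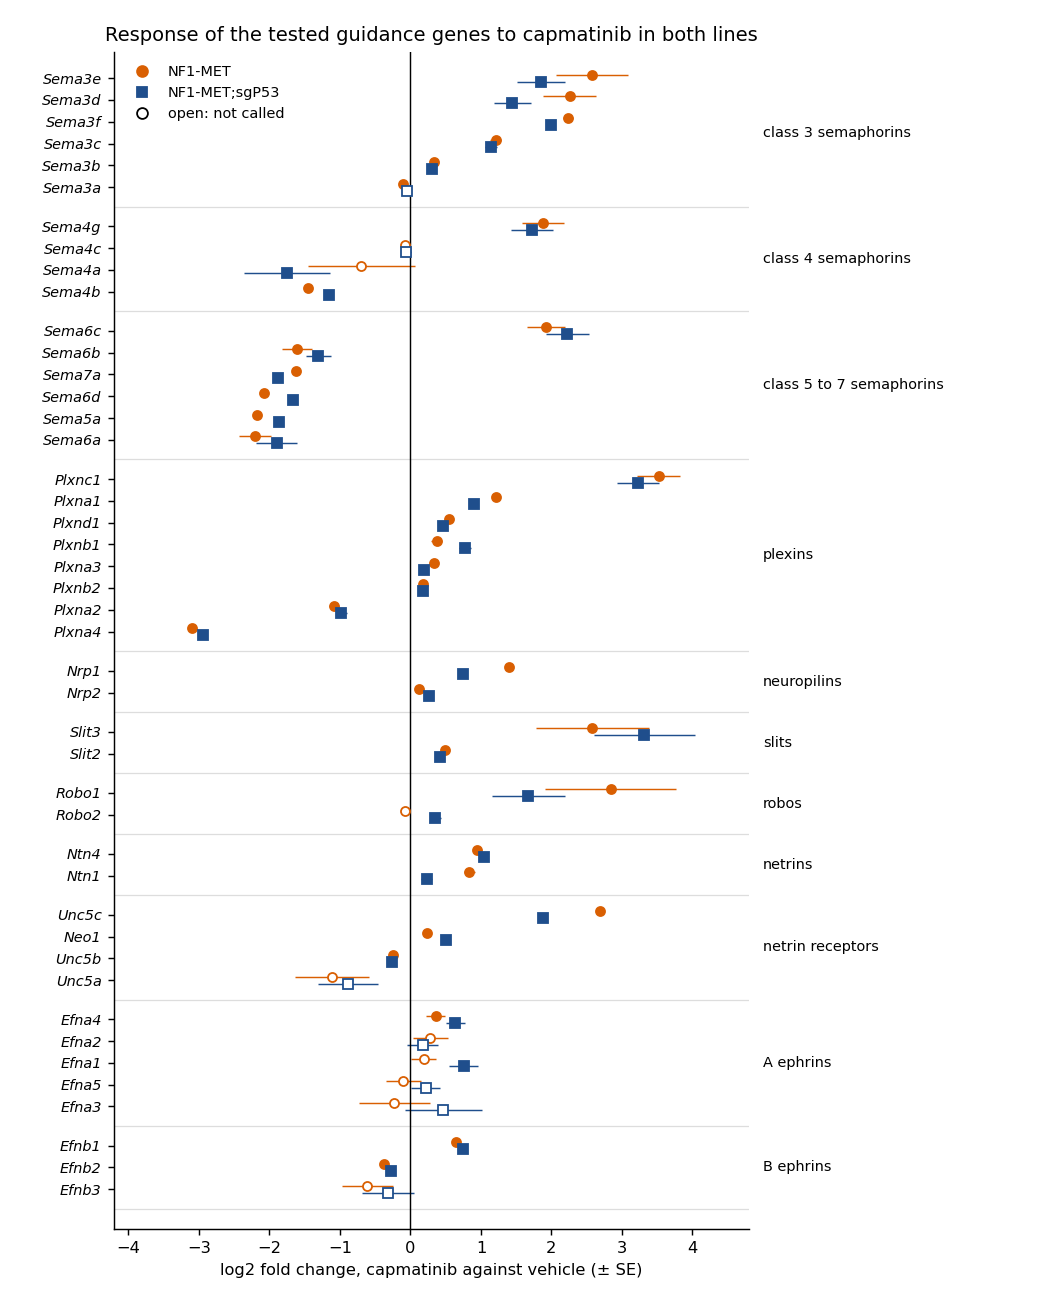
Log2 fold change of capmatinib against vehicle for the 44 tested members, grouped by role and sorted within a role by the value in NF1-MET, with circles for NF1-MET, squares for NF1-MET;sgP53, bars for ± 1 SE and open symbols for values that were not called. Class 3 semaphorins lie at or right of 0 apart from Sema3a, class 5 to 7 semaphorins lie left of -1 apart from Sema6c, and Plxna4 and Plxnc1 mark the left and right ends of the plexins.

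The secreted class 3 semaphorins rose with capmatinib, with Sema3a as the exception. Of 6 tested, 5 rose in each line, where 35.5% and 34.2% of all genes did, and Sema3a fell slightly in NF1-MET. Sema3f (ENSMUSG00000034684, mm10 chromosome 9, 107681500 to 107710475), a repellent that binds Nrp2, stood at 8.10 and 8.62 CPM with vehicle and 41.7 and 38.1 CPM with capmatinib in NF1-MET (log2 fold change 2.23, SE 0.0681, adjusted p = 8.71e-24). In NF1-MET;sgP53 it went from 11.8 and 12.8 to 49.1 and 49.0 CPM (log2 fold change 1.99, SE 0.0560, adjusted p = 2.06e-18). All 4 capmatinib libraries were above all 4 vehicle libraries. Sema3c, which can signal through both neuropilins, rose from 8.65 and 8.77 to 19.9 and 20.8 CPM in NF1-MET and from 9.22 and 7.86 to 19.4 and 18.1 CPM in NF1-MET;sgP53, a log2 fold change of 1.21 and 1.14. Sema3d and Sema3e were low genes that rose as well. Sema3d was measured at 0.193 and 0.276 CPM with vehicle and 1.26 and 1.07 CPM with capmatinib in NF1-MET (log2 fold change 2.26, SE 0.381, adjusted p = 4.06e-06). Sema3e, which binds Plxnd1 without a neuropilin, had 0.436 and 0.351 CPM with vehicle and 1.16 and 1.65 CPM with the drug in NF1-MET;sgP53 (log2 fold change 1.85, SE 0.341, adjusted p = 5.53e-05). Sema3e in NF1-MET, at 0.275 and 0.0251 CPM with vehicle and 0.903 and 0.885 CPM with capmatinib, rested on 10 counts and 1 count in the vehicle libraries, and its log2 fold change of 2.58 was 4.96 without NF1-MET vehicle replicate 1 and 1.67 without NF1-MET vehicle replicate 2, and in DESeq2's test it was not called. Sema3b rose by 1.26-fold and 1.23-fold in the 2 lines, and was no longer called in either with library totals. Sema3a (ENSMUSG00000028883, mm10 chromosome 5, 13125414 to 13602565), the founding axon repellent and the most abundant class 3 member per length here, was at 468 and 472 CPM with vehicle and 443 and 438 CPM with capmatinib in NF1-MET (log2 fold change -0.11, SE 0.0222, adjusted p = 4.47e-05). In NF1-MET;sgP53 Sema3a had 446 and 460.1 CPM with vehicle and 442 and 433 CPM with the drug and was not called (log2 fold change -0.050, SE 0.0283, adjusted p = 0.123), except without the vehicle replicate 1 library, and its response was not shown to differ between the lines (difference of log2 fold changes 0.045, SE 0.0357, adjusted p = 0.519).

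The membrane-bound semaphorins of classes 5, 6 and 7 went the other way, with 5 of 6 lower in both lines, each by more than 2-fold, as were 5.35% and 5.02% of all genes. Sema7a (ENSMUSG00000038264, mm10 chromosome 9, 57940112 to 57962865) fell from 218 and 215 to 70.5 and 71.0 CPM in NF1-MET (log2 fold change -1.63, SE 0.0295, adjusted p = 4.68e-30). It fell from 255 and 246 to 67.4 and 69.4 CPM in NF1-MET;sgP53 (log2 fold change -1.87, SE 0.0345, adjusted p = 9.75e-22). Every capmatinib library was below every vehicle library. Sema5a (ENSMUSG00000022231, mm10 chromosome 15, 32244810 to 32696341), a transmembrane semaphorin with thrombospondin repeats, fell from 308 and 297 to 68.7 and 67.3 CPM in NF1-MET (log2 fold change -2.17, SE 0.0294, adjusted p = 1.57e-33). Its values in NF1-MET;sgP53 were 208 and 190.1 CPM with vehicle and 54.4 and 54.9 CPM with capmatinib (log2 fold change -1.87, SE 0.0415, adjusted p = 2.99e-20). Sema6d (ENSMUSG00000027200, mm10 chromosome 2, 124089969 to 124667770), a ligand of Plxna1, fell from 99.3 and 97.6 to 22.5 and 24.5 CPM (log2 fold change -2.07, SE 0.0424, adjusted p = 1.49e-28) and from 68.3 and 70.0 to 21.9 and 21.8 CPM (log2 fold change -1.66, SE 0.0432, adjusted p = 5.18e-19). Sema5a and Sema6d were lower in every capmatinib library than in any vehicle library. Sema6a, which binds Plxna2 and Plxna4, fell from 3.55 and 3.08 to 0.578 and 0.833 CPM in NF1-MET (log2 fold change -2.20, SE 0.225, adjusted p = 2.64e-10). In NF1-MET;sgP53 Sema6a fell from 1.89 and 2.27 to 0.397 and 0.716 CPM (log2 fold change -1.90, SE 0.290, adjusted p = 4.94e-06). Sema6b, a further ligand of Plxna4, fell from 3.14 and 2.81 to 1.05 and 0.937 CPM and from 3.87 and 3.56 to 1.59 and 1.41 CPM, by 3.04-fold and 2.47-fold. Sema6c was the exception among these classes and rose from 0.551 and 0.551 to 2.24 and 2.03 CPM in NF1-MET (log2 fold change 1.92, SE 0.269, adjusted p = 1.59e-07). Its rise in NF1-MET;sgP53 was from 0.465 and 0.374 to 1.76 and 2.15 CPM (log2 fold change 2.22, SE 0.303, adjusted p = 1.02e-06). Class 4 was mixed. Sema4b (ENSMUSG00000030539, mm10 chromosome 7, 80186841 to 80226527) fell from 86.4 and 89.5 to 32.2 and 32.6 CPM and from 77.0 and 82.6 to 33.9 and 37.4 CPM, a log2 fold change of -1.46 and -1.16, whereas the low gene Sema4g rose by 3.70-fold and 3.30-fold. Sema4c, a ligand of Plxnb2, was at 25.1 and 25.5 CPM with vehicle and 23.8 and 24.5 CPM with capmatinib in NF1-MET and was called in neither line, but lower in NF1-MET with library totals (-0.27). Sema4a, at 0.378 CPM or less in every library, was called lower in NF1-MET;sgP53 only (-1.75 on the log2 scale), and its response was not shown to differ between the lines (difference of log2 fold changes -1.08, SE 1.11, adjusted p = 0.640). That call was lost without NF1-MET;sgP53 vehicle replicate 1 and without NF1-MET;sgP53 capmatinib replicate 1, and Sema4a was called lower in NF1-MET as well without its capmatinib replicate 1.

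Within the semaphorins the share of transcripts per length that came from the secreted class went up. Summed over the 20 semaphorins of the table, the level was 156 and 155 CPM per kb in NF1-MET with vehicle and 88.7 and 88.1 CPM per kb with capmatinib. The corresponding sums in NF1-MET;sgP53 were 156 and 154 CPM per kb, then 87.2 and 88.1 CPM per kb. Class 3 made up 26.7% and 27.2% of it with vehicle and 56.0% and 55.3% with capmatinib in NF1-MET. Its shares in NF1-MET;sgP53 were 25.9% and 27.1%, then 57.5% and 56.2%. These shares are set within a library, so the scaling between libraries does not move them. Sema7a went from 42.4% and 42.0% to 24.1% and 24.4% of the sum in NF1-MET. In the other line it went from 49.7% and 48.5% to 23.4% and 23.9%. In NF1-MET the summed level of class 3 went from 41.7 and 42.3 to 49.6 and 48.7 CPM per kb, and that of classes 4 to 7 from 114 and 113 to 39.1 and 39.4 CPM per kb. The fall of classes 4 to 7 was thus larger in CPM per kb than the rise of class 3. The shares depend on the length given to each gene: with the longest annotated transcript in place of all exons, an alternative added with the data in view, the mean share of class 3 was 39.4% with vehicle and 67.9% with capmatinib in NF1-MET. For NF1-MET;sgP53 it was 39.9% and 68.9%.

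**Figure D2:**
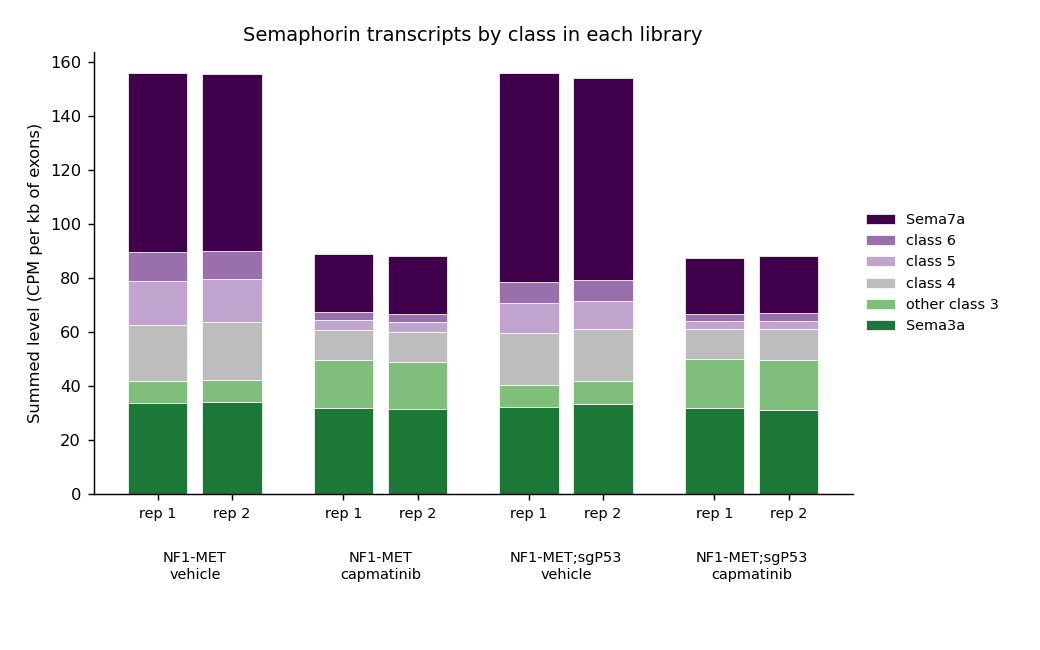
Summed level of the semaphorins in CPM per kb of annotated exons, in each of the 8 libraries, stacked by class with Sema3a and Sema7a shown apart. The vehicle bars reach 154 to 156 and the capmatinib bars 87.2 to 88.7 CPM per kb; the dark upper part, Sema7a, shrinks and the light green part, class 3 without Sema3a, grows, while Sema3a lies between 31.2 and 34.1 CPM per kb in every library.

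Among the receptors of the semaphorins, 6 of 8 tested plexins rose and 2 fell in each line, and both neuropilins rose, where 35.5% of all genes rose and 34.7% fell in NF1-MET and 34.2% and 33.4% in the sgP53 line. Plxna4 (ENSMUSG00000029765, mm10 chromosome 6, 32144268 to 32588192), a receptor for Sema6a and Sema6b and a partner of neuropilin for Sema3a, had the largest fall of all members, from 72.5 and 70.0 to 7.95 and 8.72 CPM in NF1-MET (log2 fold change -3.10, SE 0.0574, adjusted p = 8.47e-30). Its values in NF1-MET;sgP53 fell from 45.0 and 44.6 to 5.84 and 5.76 CPM (log2 fold change -2.95, SE 0.0653, adjusted p = 2.78e-20). Plxnc1 (ENSMUSG00000074785, mm10 chromosome 10, 94790866 to 94944835), the receptor of Sema7a, rose where Sema7a fell. It was at 0.248 and 0.226 CPM with vehicle and 2.35 and 3.12 CPM with capmatinib in NF1-MET (log2 fold change 3.52, SE 0.307, adjusted p = 6.82e-12). The sgP53 line had 0.174 and 0.445 CPM with vehicle and 3.09 and 3.03 CPM with the drug (log2 fold change 3.23, SE 0.295, adjusted p = 1.98e-09), and this value was 2.77 without vehicle replicate 1 and 4.11 without vehicle replicate 2 of that line. Even with capmatinib its level per length, a mean of 0.328 CPM per kb in NF1-MET, was below that of Sema7a, 21.4 CPM per kb. Plxna1 (ENSMUSG00000030084, mm10 chromosome 6, 89316314 to 89362620), an abundant receptor of class 3 semaphorins and Sema6d, rose from 198 and 193 to 448 and 466 CPM and from 238 and 244 to 441 and 457 CPM, by 2.32-fold and 1.86-fold. Its exons overlap those of Gm26811 on the other strand over 10.7% of their length, and reads there could come from either gene if the counting did not use strand. Plxna2 fell from 20.9 and 20.3 to 9.50 and 10.0 CPM in NF1-MET, a log2 fold change of -1.09, and by 1.97-fold in NF1-MET;sgP53. The class A plexins therefore split, with Plxna1 and Plxna3 higher and Plxna2 and Plxna4 lower. Plxna3 rose by 1.26-fold and 1.14-fold, and its log2 fold change in NF1-MET;sgP53, 0.19, was 0.12 and not called without NF1-MET;sgP53 capmatinib replicate 2, nor was it called with library totals (0.070). Plxnd1 rose by 1.45-fold and 1.37-fold, Plxnb1, which can associate with MET, by 1.30-fold and 1.71-fold, and Plxnb2 by 1.13-fold in both lines. With library totals Plxnb1 was not called in NF1-MET, and Plxnb2 in NF1-MET turned to -0.010 on the log2 scale and was not called in either line. Met itself fell from 351 and 362 to 230.2 and 232 CPM in NF1-MET and from 344 and 342 to 248 and 246 CPM in NF1-MET;sgP53, a log2 fold change of -0.64 and -0.47.

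Nrp1 (ENSMUSG00000025810, mm10 chromosome 8, 128358604 to 128503363), the co-receptor of Sema3a that also binds VEGF, rose from 71.9 and 75.4 to 197 and 195 CPM in NF1-MET (log2 fold change 1.39, SE 0.0304, adjusted p = 7.89e-28). In NF1-MET;sgP53 it rose from 105 and 104 to 174 and 178 CPM (log2 fold change 0.75, SE 0.0332, adjusted p = 6.77e-15). Nrp2, the co-receptor of Sema3f, was the more abundant neuropilin per length with vehicle, at a mean of 30.2 CPM per kb in NF1-MET against 7.52 for Nrp1. Its change was small, from 360.1 and 355 to 388 and 401 CPM and from 318 and 315 to 386 and 372 CPM (0.12 and 0.26 on the log2 scale), and with library totals the value in NF1-MET reversed to -0.061 and that in NF1-MET;sgP53 was 0.14 and not called.

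Of the 54 members, 44 had at least 1 promoter among the RefSeq promoters used here (GRCm38.p6, 250 bases before to 50 bases after a transcript start), 59 promoters in all. They were searched on both strands for TGANTCA (the AP-1 motif), GGAATG (TEAD) and CCGGAA (ETS). The letters of AP-1 were found in 3 of the 59 (5.08%), those of TEAD in 5 (8.47%) and those of ETS in 5 (8.47%), where 7.81%, 14.7% and 14.9% of all 32851 promoters held them. Among the members that rose in NF1-MET, 0 of 20 with a promoter held the AP-1 letters, 2 the TEAD letters and 2 the ETS letters. Of the 11 members that fell in NF1-MET, 9 entered the count. Of these 9, 1 held the AP-1 letters, 1 the TEAD letters and 2 the ETS letters. For the others that fell no motif count is given. The 250 bases before the start are shown for a ligand and receptor pair that moved in opposite directions (Sema7a and Plxnc1). Sema6d and Plxna1 also moved in opposite directions and are not shown. The others shown are Unc5c, whose rise is given below, and 2 genes that fell and hold a motif, with the match in capitals. The sequences read 5′ to 3′ on the gene's own strand.
Sema7a, chr9:57939862-57940111, plus strand, no match: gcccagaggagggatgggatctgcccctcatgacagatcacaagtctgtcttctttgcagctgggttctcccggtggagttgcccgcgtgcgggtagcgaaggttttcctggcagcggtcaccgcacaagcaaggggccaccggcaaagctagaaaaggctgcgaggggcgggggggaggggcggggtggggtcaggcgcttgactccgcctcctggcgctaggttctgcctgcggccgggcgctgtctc
Plxnc1, chr10:94944846-94945095, minus strand, no match: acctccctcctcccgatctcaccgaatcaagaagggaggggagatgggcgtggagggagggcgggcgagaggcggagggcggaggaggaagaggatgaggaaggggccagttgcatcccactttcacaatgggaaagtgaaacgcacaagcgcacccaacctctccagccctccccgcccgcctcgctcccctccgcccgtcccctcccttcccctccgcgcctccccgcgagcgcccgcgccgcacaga
Unc5c, chr3:141465314-141465563, plus strand, no match: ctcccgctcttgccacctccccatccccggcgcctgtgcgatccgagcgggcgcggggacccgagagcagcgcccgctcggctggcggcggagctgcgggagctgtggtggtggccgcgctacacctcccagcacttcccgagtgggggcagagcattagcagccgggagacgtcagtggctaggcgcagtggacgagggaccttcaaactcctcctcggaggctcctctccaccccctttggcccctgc
Sema4b, chr7:80186620-80186869, plus strand, ETS on the reverse strand: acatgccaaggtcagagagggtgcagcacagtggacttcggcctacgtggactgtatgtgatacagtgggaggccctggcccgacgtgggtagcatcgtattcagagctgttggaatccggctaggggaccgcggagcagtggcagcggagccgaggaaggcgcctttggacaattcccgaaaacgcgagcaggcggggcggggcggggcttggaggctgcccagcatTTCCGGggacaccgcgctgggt
Sema6b, chr17:56133853-56134102, minus strand, upstream of an internal start, AP-1: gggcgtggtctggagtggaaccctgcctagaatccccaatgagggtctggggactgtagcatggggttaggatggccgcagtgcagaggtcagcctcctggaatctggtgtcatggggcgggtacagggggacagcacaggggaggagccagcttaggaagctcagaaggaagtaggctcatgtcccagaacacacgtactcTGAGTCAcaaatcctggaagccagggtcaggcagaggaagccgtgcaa
The other Sema4b and Sema6b promoters of the table hold none of the 3 motifs. A match describes these letters only, and no binding was measured.

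Slits and robos were unevenly expressed. Slit2 (ENSMUSG00000031558, mm10 chromosome 5, 47983138 to 48307733), a secreted repellent, was abundant and rose from 378 and 369 to 530.5 and 529 CPM in NF1-MET and from 362 and 359 to 485 and 478 CPM in NF1-MET;sgP53, by 1.40-fold and 1.34-fold, with all 4 capmatinib libraries above all 4 vehicle libraries. Robo2, the only receptor of slits above 1 CPM, had a mean of 1.57 CPM per kb in NF1-MET with vehicle, where Slit2 had 14.7. Robo1 was at 0.0551 and 0 CPM with vehicle and 0.217 and 0.208 CPM with capmatinib in NF1-MET, and at 0.145 and 0.164 CPM, then 0.652 and 0.358 CPM, in NF1-MET;sgP53. It was called higher in both lines, but not without NF1-MET vehicle replicate 2 or without NF1-MET;sgP53 capmatinib replicate 1, and with 2 and 0 counts in the NF1-MET vehicle libraries no fold is given. Robo2 (ENSMUSG00000052516, mm10 chromosome 16, 73891839 to 74411825) was at 26.5 and 26.9 CPM with vehicle and 24.7 and 26.4 CPM with capmatinib in NF1-MET and was not called (log2 fold change -0.076, SE 0.0563, adjusted p = 0.231), but with library totals it was called lower there, at -0.26. In NF1-MET;sgP53 it rose from 10.7 and 10.3 to 13.5 and 13.4 CPM, a log2 fold change of 0.35 that was 0.23 and not called with library totals. Slit3 was called higher in both lines, but not in NF1-MET without capmatinib replicate 2, and its log2 fold change in NF1-MET;sgP53, 3.32, became 3.98 without the vehicle replicate 1 library, and its highest library held 0.496 CPM.

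Both netrins and the receptor Unc5c rose. Unc5c (ENSMUSG00000059921, mm10 chromosome 3, 141465216 to 141834924), a receptor that turns netrin into a repellent, went from 9.06 and 9.32 CPM with vehicle to 60.0 and 60.5 CPM with capmatinib in NF1-MET (log2 fold change 2.70, SE 0.0565, adjusted p = 2.75e-28). Its level in NF1-MET;sgP53 went from 14.7 and 16.1 to 57.9 and 56.3 CPM (log2 fold change 1.89, SE 0.0525, adjusted p = 1.77e-18). The capmatinib levels of the lines lay close together and the vehicle levels apart. Ntn1 (ENSMUSG00000020902, mm10 chromosome 11, 68209364 to 68400823), the ligand, rose from 10.2 and 10.2 to 17.9 and 18.8 CPM in NF1-MET and from 12.1 and 13.5 to 15.0 and 15.2 CPM in NF1-MET;sgP53, by 1.78-fold and 1.18-fold. The call in NF1-MET;sgP53 was lost without vehicle replicate 1 and without capmatinib replicate 2, with library totals and in DESeq2's Wald test, with log2 fold changes between 0.11 and 0.23. Ntn4, a netrin of basement membranes, rose from 24.5 and 25.2 to 47.5 and 49.5 CPM and from 21.2 and 22.3 to 43.0 and 46.8 CPM, by 1.93-fold and 2.06-fold. The abundant receptor Unc5b fell by 1.19-fold in both lines, from 267 and 259.6 to 222 and 226 CPM in NF1-MET. Neo1, a receptor of netrins and repulsive guidance molecules, rose from 103 and 103 to 121 and 123 CPM and from 90.5 and 91.9 to 130.2 and 129 CPM, by 1.17-fold and 1.42-fold, and in NF1-MET it was not called with library totals. Unc5a, at 0.608 CPM or less, was called in neither line, but lower in both with library totals and lower in NF1-MET without its capmatinib replicate 1.

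**Figure D3:**
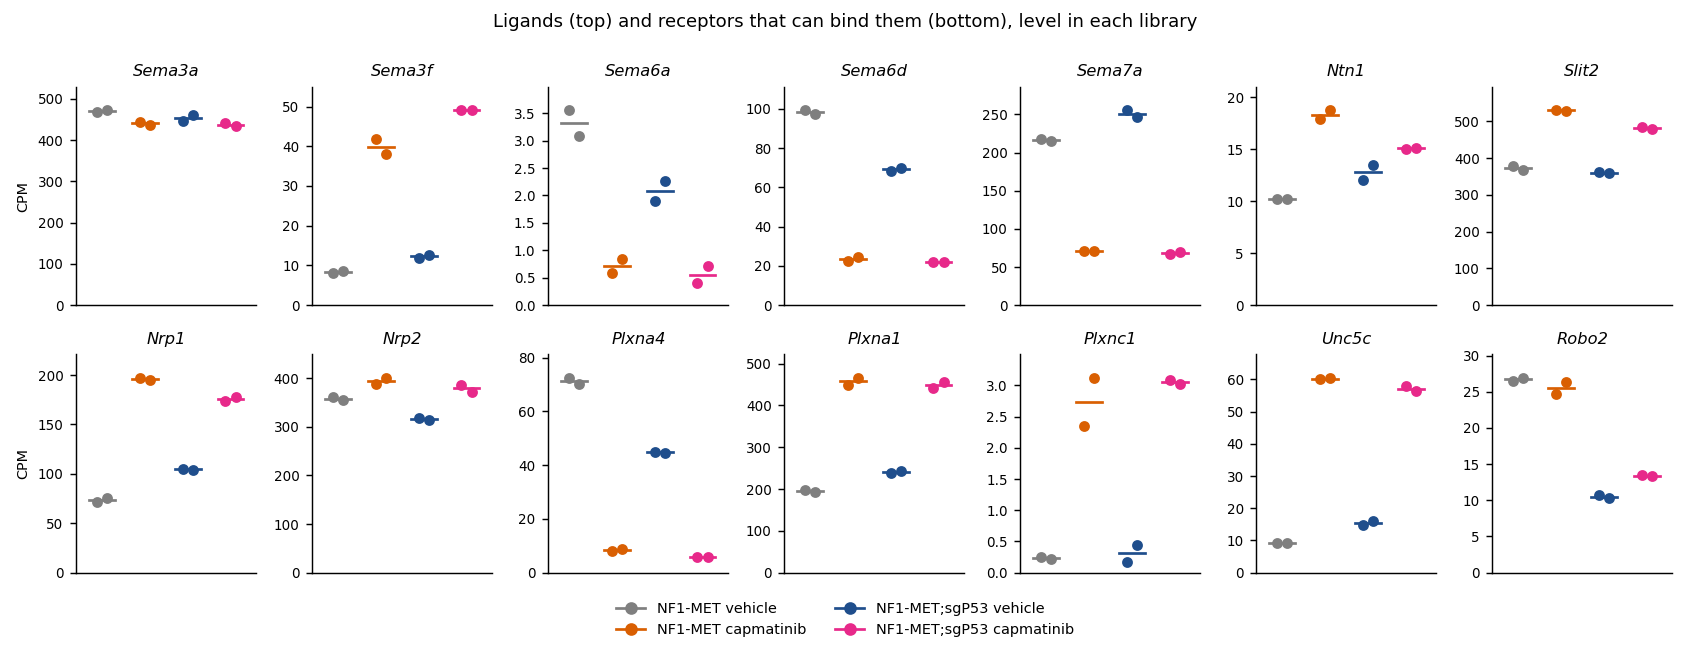
Level in CPM (linear axis from 0, scale set for each gene) of 7 ligands in the upper row and, below each, a receptor that can bind it, with 1 point for each library and a line at the mean of the 2 libraries of a group. Sema3f and Nrp1 are higher, and Sema6a, Sema6d, Sema7a and Plxna4 lower, in both capmatinib groups; Plxnc1 is higher where Sema7a is lower, and Robo2 differs between the lines under both treatments.

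The ephrins changed by less than 2-fold where they were called. Of 8 tested, 2 rose and 1 fell in NF1-MET, and 3 rose and 1 fell in NF1-MET;sgP53, where 35.5% and 34.7% of all genes in the former and 34.2% and 33.4% in the latter did. Efnb2 (ENSMUSG00000001300, mm10 chromosome 8, 8617434 to 8661242), the membrane ligand of Ephb4, fell from 217 and 212 to 162 and 172 CPM and from 216 and 219 to 179 and 179 CPM, by 1.30-fold and 1.21-fold. Efnb1 rose from 38.1 and 39.9 to 61.9 and 61.2 CPM and from 38.5 and 38.0 to 63.1 and 65.0 CPM, by 1.56-fold and 1.68-fold. Efna4 rose by 1.28-fold and 1.56-fold, and its call in NF1-MET was lost under 4 of 13 alternatives, among them the omission of NF1-MET vehicle replicate 2 (0.21 against 0.36 on the log2 scale) and of NF1-MET capmatinib replicate 1. The exons of Efna4 overlap those of 4731419I09Rik on the other strand over 10.5% of their length, so the limit given for Plxna1 applies here too. Efna1, a ligand of Epha2, was called in NF1-MET;sgP53 only (1.69-fold), and its response was not shown to differ between the lines (difference of log2 fold changes 0.55, SE 0.270, adjusted p = 0.238). Efna2, Efna3, Efna5 and Efnb3, at 2.04 CPM or less in every library, were called in neither line, apart from Efnb3 in NF1-MET with library totals. The summed level of the 8 ephrins was 48.0 and 47.5 CPM per kb with vehicle and 48.3 and 48.5 CPM per kb with capmatinib in NF1-MET. In NF1-MET;sgP53 it was 46.9 and 47.2 CPM per kb with vehicle and 50.2 and 51.2 CPM per kb with capmatinib.

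Eph receptors are the receptors of the ephrins. Of 14 genes 10 were tested, and in each line 8 rose and 2 fell with capmatinib, where 35.5% of all genes rose and 34.7% fell (NF1-MET) or 34.2% and 33.4% did (NF1-MET;sgP53), with a median log2 fold change of 0.97 (NF1-MET) and 0.83 (NF1-MET;sgP53), where the medians over all genes were near 0. Ephb3 rose from 9.14 and 9.83 to 37.8 and 38.1 CPM in NF1-MET (log2 fold change 1.98, SE 0.0638, adjusted p = 3.74e-23). Epha3 rose from 1.60 and 2.06 to 9.21 and 11.6 CPM (log2 fold change 2.505, SE 0.142, adjusted p = 1.48e-16), and Epha4 from 0.606 and 0.752 to 3.90 and 3.98 CPM (log2 fold change 2.51, SE 0.211, adjusted p = 2.73e-12). Epha2, a receptor of Efna1, fell from 231 and 237 to 156 and 159.7 CPM (log2 fold change -0.58, SE 0.0266, adjusted p = 4.53e-19). The low gene Epha8 fell from 1.05 and 1.23 to 0.434 and 0.208 CPM (log2 fold change -1.91, SE 0.375, adjusted p = 3.67e-05). In NF1-MET;sgP53 the log2 fold changes of Ephb3, Epha3, Epha4, Epha2 and Epha8 were 1.94, 2.91, 2.59, -0.57 and -2.27.

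Without the drug, 23 of 44 members differed between the lines: 8 were higher in NF1-MET;sgP53 (18.2%) and 15 lower (34.1%), where 10.9% and 12.3% of all genes were. Most differences were under 2-fold. Of the members called, Robo2 had the largest difference downward, at 10.7 and 10.3 CPM against 26.5 and 26.9 CPM in NF1-MET (log2 fold change -1.37, SE 0.0653, adjusted p = 3.84e-12). Plxna4, at 45.0 and 44.6 against 72.5 and 70.0 CPM, was lower too (log2 fold change -0.69, SE 0.0365, adjusted p = 1.95e-11), as was Sema5a at 208 and 190.1 against 308 and 297 CPM (log2 fold change -0.62, SE 0.0343, adjusted p = 3.56e-11). Lower as well were Sema6a (log2 fold change -0.68, SE 0.170, adjusted p = 0.00604), whose call was lost without NF1-MET vehicle replicate 1, and Efna1 (log2 fold change -0.74, SE 0.201, adjusted p = 0.0105), whose call was lost without NF1-MET vehicle replicate 2. Higher in NF1-MET;sgP53 were Unc5c, at 14.7 and 16.1 against 9.06 and 9.32 CPM (log2 fold change 0.73, SE 0.0793, adjusted p = 7.05e-07), and Nrp1, at 105 and 104 against 71.9 and 75.4 CPM (log2 fold change 0.49, SE 0.0330, adjusted p = 7.45e-10). Sema3f, at 11.8 and 12.8 against 8.10 and 8.62 CPM, was higher by a log2 fold change of 0.54 (SE 0.0841, adjusted p = 6.54e-05). Ntn1 was higher by 0.32 (SE 0.0816, adjusted p = 0.00746) and not called without NF1-MET;sgP53 vehicle replicate 2. Sema3d was higher by 1.72 (SE 0.432, adjusted p = 0.00597) and not called without NF1-MET vehicle replicate 1 or without NF1-MET;sgP53 vehicle replicate 2. Plxna1 was higher by 0.28 (SE 0.0275, adjusted p = 1.42e-07). The remaining higher members were Plxnd1 and Sema7a, each with a log2 fold change of 0.19, and the other 10 lower members lay between -0.53 (Sema6d) and -0.073 (Sema3a). Several of these calls rested on 1 library. Leaving out NF1-MET vehicle replicate 1 ended those of Plxnd1, Efna4 and Sema3a, NF1-MET vehicle replicate 2 those of Ntn4, Sema3b and Sema3a, replicate 1 of the NF1-MET;sgP53 vehicle group those of Plxnd1, Efna4, Ntn4, Sema3b and Sema3a, and its replicate 2 that of Efna4. The median over the 44 was -0.049, and 0.0024 over all genes; it was -0.080 without NF1-MET vehicle replicate 1, -0.027 without NF1-MET vehicle replicate 2, and 0.0078 with library totals (0.060 over all genes). With library totals 8 members were higher and 7 lower, and in DESeq2's Wald test 5 and 9. Library totals ended the calls of Efna4, Neo1, Nrp2, Ntn4, Sema3a, Sema3b, Sema4b and Unc5b, and DESeq2's test those of Efna1, Efna4, Ntn1, Ntn4, Plxnd1, Sema3a, Sema3b, Sema3d and Sema6a.

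The line difference in vehicle and the capmatinib response in NF1-MET share the NF1-MET vehicle libraries, so their values are only set side by side. The log2 values were 0.49 for the line and 1.39 for the drug in Nrp1, 0.73 and 2.70 in Unc5c, and 0.54 and 2.23 in Sema3f. For Plxna4 they were -0.69 and -3.10, for Sema5a -0.62 and -2.17, and for Sema6d -0.53 and -2.07. Sema7a differed in sign, at 0.19 for the line and -1.63 for the drug. So did Plxnb1 (-0.51 and 0.37), Efna4 (-0.43 and 0.36), Ntn4 (-0.21 and 0.95), Nrp2 (-0.20 and 0.12), Neo1 (-0.19 and 0.23) and Sema3b (-0.18 and 0.33). Robo2 had -1.37 for the line and -0.076, which was not called, for the drug.

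With capmatinib, 11 members differed between the lines, 2 higher in NF1-MET;sgP53 (4.55%) and 9 lower (20.5%), where 5.94% and 6.34% of all genes were. Robo2 again had the largest difference downward among those called, at 13.5 and 13.4 against 24.7 and 26.4 CPM (log2 fold change -0.93, SE 0.0635, adjusted p = 1.49e-08). Plxna4, at 5.84 and 5.76 against 7.95 and 8.72 CPM, and Sema5a, at 54.4 and 54.9 against 68.7 and 67.3 CPM, were lower (log2 fold change -0.53, SE 0.102, adjusted p = 0.00172, and log2 fold change -0.31, SE 0.0358, adjusted p = 7.58e-06). Ntn1 (log2 fold change -0.28, SE 0.0657, adjusted p = 0.00721) and Plxna3 (log2 fold change -0.23, SE 0.0483, adjusted p = 0.00297) were lower, the former not without NF1-MET capmatinib replicate 2. Sema3f was higher, at 49.1 and 49.0 against 41.7 and 38.1 CPM (log2 fold change 0.30, SE 0.0465, adjusted p = 1.96e-04), and so was Sema3d (log2 fold change 0.92, SE 0.222, adjusted p = 0.00957), whose call was lost without NF1-MET capmatinib replicate 2. The other 4 lower members, Sema3b, Nrp1, Slit2 and Unc5b, lay between -0.20 and -0.14. In DESeq2's test Ntn1, Sema3b and Sema3d were not called. The median over the 44 was -0.052, and -0.0010 over all genes, and it was -0.025 without NF1-MET;sgP53 capmatinib replicate 1. With library totals, which moved the median of all genes by 0.11 in this comparison, 3 members were higher and 1 lower, and of the 7 genes named only Robo2, Sema3f and Sema3d were called. Robo2 was thus lower in NF1-MET;sgP53 with and without the drug under all alternatives tried.

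The interaction of line and capmatinib, tested over the 8 libraries, asks whether the response itself differed. The difference is the log2 fold change in NF1-MET;sgP53 minus that in NF1-MET, both from the fit over the 8 libraries. The responses printed for each line come from separate fits with their own scaling and do not subtract exactly to it. It was above 0 for 7 members (15.9%) and below 0 for 5 (11.4%), where 3.85% and 5.86% of all genes were called. The median over the 44 was 0.062, and -0.026 over all genes; without NF1-MET capmatinib replicate 2 it was 0.016 over the 44, and without NF1-MET;sgP53 capmatinib replicate 2 it was 0.010, and 0.0064 over all genes, of which 713 were then above 0 and 509 below. Robo2, whose response was called higher in NF1-MET;sgP53 alone, and with library totals lower in NF1-MET alone, had a difference of 0.41 on the log2 scale, SE 0.0922, adjusted p = 0.00380. For the other 11 the response had the same sign in both lines, and the test concerns its size. For 4 genes with a smaller rise in NF1-MET;sgP53 the vehicle level, which enters the difference, was higher there. Unc5c rose by 6.48-fold in NF1-MET and 3.70-fold in NF1-MET;sgP53, a difference of -0.83 on the log2 scale, SE 0.0794, adjusted p = 8.07e-08. Nrp1 rose by 2.63-fold and 1.68-fold, a difference of -0.66 on the log2 scale, SE 0.0445, adjusted p = 1.24e-10. Ntn1 had a difference of -0.62 on the log2 scale, SE 0.104, adjusted p = 2.11e-04, and Plxna1 one of -0.33 on the log2 scale, SE 0.0396, adjusted p = 2.61e-06.

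Falls were smaller in NF1-MET;sgP53 for Sema6d (0.40 on the log2 scale, SE 0.0615, adjusted p = 7.40e-05), Sema5a (0.29 on the log2 scale, SE 0.0535, adjusted p = 6.11e-04) and Sema4b (0.28 on the log2 scale, SE 0.0633, adjusted p = 0.00459), each of which started lower there with vehicle. Sema7a started higher in NF1-MET;sgP53 with vehicle and fell further, with a difference of -0.26 on the log2 scale, SE 0.0447, adjusted p = 2.75e-04. Rises were larger in NF1-MET;sgP53 for Neo1 (0.26 on the log2 scale, SE 0.0430, adjusted p = 1.58e-04), Plxnb1 (0.38 on the log2 scale, SE 0.109, adjusted p = 0.0258) and Nrp2 (0.12 on the log2 scale, SE 0.0377, adjusted p = 0.0419). The last 2 were near the threshold: each was lost under 7 of 16 alternatives, for Plxnb1 without NF1-MET vehicle replicate 1 or 2, NF1-MET capmatinib replicate 1, NF1-MET;sgP53 vehicle replicate 2 or NF1-MET;sgP53 capmatinib replicate 2, and for Nrp2 without NF1-MET vehicle replicate 1 or 2, NF1-MET capmatinib replicate 1, NF1-MET;sgP53 vehicle replicate 1 or 2 or NF1-MET;sgP53 capmatinib replicate 1. With library totals 3 members were above 0 and 3 below 0. Leaving out Gm42418 left the counts of members at 7 and 5, while over all genes it moved the split from 558 above and 849 below 0 to 873 and 612.

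**Figure D4:**
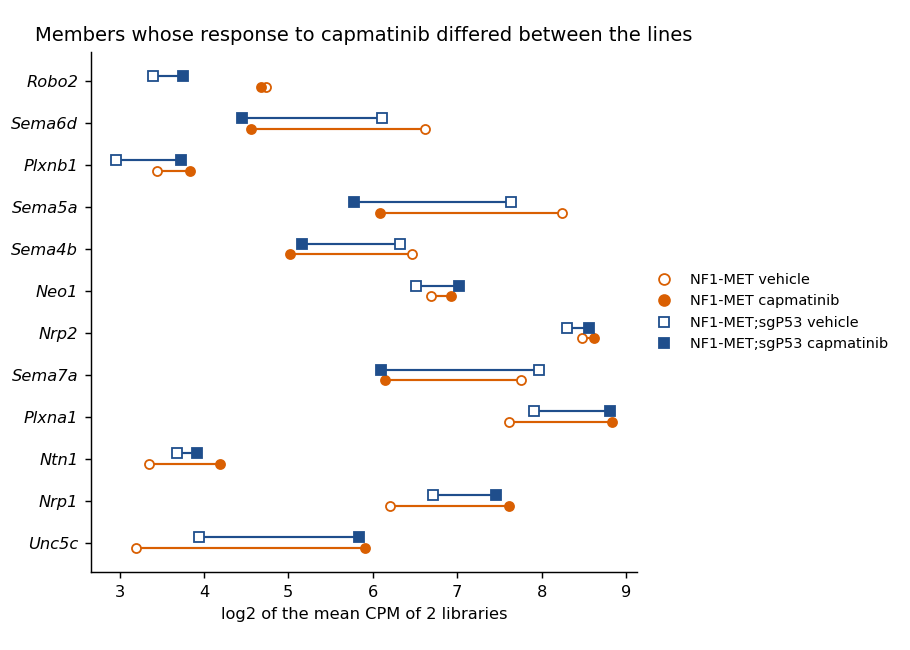
Log2 of the mean CPM of 2 libraries for the 12 members called in the interaction, with open symbols for vehicle, filled symbols for capmatinib, circles for NF1-MET and squares for NF1-MET;sgP53. The filled symbols of the lines lie closer together than the open ones for every gene but Sema4b, where the distances are near equal. For Ntn1 the distances differ little. Robo2 lies lower in NF1-MET;sgP53 under both treatments.

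Further guidance genes and the cytoplasmic proteins that relay their signals were summarized from lists. The shares of all genes given for the Eph receptors apply to the counts below as well. Of 20 other ligands and receptors 10 were tested, and in NF1-MET 5 rose and 5 fell with a median log2 fold change of -0.14, while in NF1-MET;sgP53 5 rose and 4 fell with a median of -0.056. Without NF1-MET vehicle replicate 1 the first pair of counts was 4 and 3, and in DESeq2's test the second was 3 and 3. Nrcam, an adhesion molecule of axons, fell from 17.0 and 15.9 to 3.58 and 3.54 CPM in NF1-MET (log2 fold change -2.22, SE 0.0992, adjusted p = 2.50e-19). Rgmb, a ligand of Neo1, fell from 96.3 and 95.3 to 31.4 and 30.6 CPM (log2 fold change -1.65, SE 0.0388, adjusted p = 7.47e-27). Flrt2, a ligand of Unc5 receptors, fell by 1.74-fold, and its relative Flrt3 rose by 1.48-fold, as did Lrrc4c, a netrin-G ligand, by 2.26-fold. Flrt1 rested on 11 and 2 counts in the NF1-MET vehicle libraries, and its log2 fold change of 3.40 was 5.10 without NF1-MET vehicle replicate 1 and 2.59 without NF1-MET vehicle replicate 2. In NF1-MET;sgP53 the log2 fold changes were -2.90 for Nrcam, -1.16 for Rgmb, -0.93 for Flrt2, 0.78 for Flrt3, 2.96 for Flrt1 and 0.72 for Lrrc4c.

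Of 41 cytoplasmic effectors 36 were tested. In NF1-MET 22 rose and 8 fell, with a median log2 fold change of 0.20, and in NF1-MET;sgP53 22 rose and 6 fell, with a median of 0.20. With library totals 14 rose and 13 fell in NF1-MET, where over all genes 3508 rose and 6381 fell, and 10 rose and 6 fell in NF1-MET;sgP53. Ngef, the exchange factor ephexin that acts below EphA receptors, fell from 96.7 and 96.9 to 10.2 and 10.3 CPM in NF1-MET (log2 fold change -3.26, SE 0.0488, adjusted p = 2.24e-32) and from 62.7 and 58.1 to 5.08 and 4.90 CPM in NF1-MET;sgP53 (log2 fold change -3.59, SE 0.0656, adjusted p = 8.27e-22). The exchange factor Vav3 and the kinase Fes fell by 1.62-fold and 1.54-fold in NF1-MET, and Vav3 and Limk1, the kinase of cofilin, by 1.80-fold and 1.52-fold in NF1-MET;sgP53. In NF1-MET the call of Vav3 was lost without vehicle replicate 2 or capmatinib replicate 2, and that of Fes under 7 of 13 alternatives, among them the omission of vehicle replicate 2 and of either capmatinib library. The actin regulators Ablim1, Mical1 and Enah rose. Ablim1 went from 1.29 and 0.576 to 8.24 and 8.35 CPM in NF1-MET (log2 fold change 3.15, SE 0.182, adjusted p = 2.40e-16), and from 2.76 and 3.07 to 11.4 and 10.7 CPM in NF1-MET;sgP53 (log2 fold change 1.92, SE 0.109, adjusted p = 5.77e-13). The value in NF1-MET was 3.83 without vehicle replicate 1 and 2.66 without vehicle replicate 2. Mical1, which oxidizes actin below plexins, rose by 3.25-fold and 2.56-fold, and Enah by 3.01-fold and 3.07-fold. In the interaction 10 of the 36 effectors had a difference below 0 in edgeR's test and 0 had one above 0, where 5.86% and 3.85% of all genes did; at an unadjusted p under 0.05 the counts were 12 below and 2 above, and in DESeq2's test 8 and 0. With library totals the counts were 3 and 0, and without Gm42418, which turned the split over all genes as given above, they were 8 and 1. Ablim1 had a difference of -1.25 (SE 0.251, adjusted p = 0.00141), which was not called without NF1-MET vehicle replicate 2 (-0.76).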

How the data were processed

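Poly(A) RNA of the 8 libraries was sequenced from both ends. The authors trimmed reads with Trim Galore 0.4.2, mapped them to mm10 with STAR 2.5.2b and deposited the raw counts per gene from STAR, neither normalized nor filtered; annotation release and strand setting are not given in the sources used here. The NF1-MET columns carry names (SEVV, SEVC) in which EV could stand for empty vector. The paper describes an empty-vector control line, NF1-MET;sgEmptyVector. Whether that line or the parental one was sequenced, the sources do not settle.

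A gene entered the tests with 10 or more counts in 2 or more libraries, and a comparison with counts above 0 in 2 or more of the libraries compared. Within R 4.3.3, library sizes were scaled with TMM factors (0.898 to 1.10 over the 8 libraries) and genes tested with edgeR 4.0.16 (quasi-likelihood F-test, Benjamini-Hochberg adjusted, threshold 0.05); an SE is the log2 fold change over the square root of F. DESeq2 1.42.0 was an alternative. Capmatinib was compared with vehicle in each line, the lines in each treatment, and their interaction over 8 libraries. Levels are CPM, per kb where genes are compared (union of exons, GENCODE M21, in which all 54 members were found). Alternatives were DESeq2's size factors, library totals, DESeq2's Wald test, the bias-adjusted test, no filter or a stricter one, a replicate block, 1 model for all libraries, omission of Gm42418 and of each library. The procedure was tested on simulated data, and that run is not used as support for any result here. Replicates differed by more than sampling noise (median squared difference 1.55 to 1.83 times it).

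The members and the lists were chosen with earlier results of these data known. The alternatives for the lists and for members not called were added after the data were seen. Among called members at 1 CPM or more in the higher group, each comparison has full statistics for the 5 largest rises and 5 largest falls. Members called in the interaction have them too. Outside this rule they are given for Sema3a, and for Sema3d between the lines in vehicle, where it was below 1 CPM. The same holds for the differences of response of Sema3a, Sema4a and Efna1. For the lists they are given for the 3 largest of each direction. Met, Trp53 and Gm42418 are named beside them. The promoters are those of RefSeq on GRCm38.p6.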

Additional observations from a re-analysis of the deposited data

Results flagged for a closer look

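For 12 members the response to capmatinib differed between NF1-MET and NF1-MET;sgP53 in edgeR's test of the interaction (adjusted p under 0.05). Values are the log2 fold change in NF1-MET;sgP53 minus that in NF1-MET, in the fit over the 8 libraries. Rises were smaller in NF1-MET;sgP53 for Unc5c (-0.83), Nrp1 (-0.66), Ntn1 (-0.62) and Plxna1 (-0.33). The fall of Sema7a was larger there (-0.26). Falls were smaller for Sema6d (0.40), Sema5a (0.29) and Sema4b (0.28), and rises larger for Plxnb1 (0.38), Neo1 (0.26) and Nrp2 (0.12). Robo2 (0.41) was called higher with capmatinib in NF1-MET;sgP53 and not called in NF1-MET, where with library totals it was called lower. These are 12 of 44 members tested, 7 above and 5 below 0 (15.9% and 11.4%), where 3.85% and 5.86% of all genes were called. With library totals, 6 of the 12 were no longer called: Sema7a, Plxna1, Sema4b, Neo1, Plxnb1 and Nrp2. The vehicle libraries enter both the difference of the responses and the difference of the lines in vehicle, so these are not independent.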

How the results depend on the processing

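Scaling moved more values than any other choice tried. With library totals in place of TMM factors the median log2 fold change of the members was 0.072 for capmatinib in NF1-MET (0.26 with TMM factors), 0.20 in NF1-MET;sgP53 (0.33), 0.064 for the lines in capmatinib (-0.052, a change of sign), 0.0078 for the lines in vehicle (-0.049, also a change of sign) and 0.14 for the interaction (0.062). Members called lower in NF1-MET;sgP53 numbered 7 in vehicle (15) and 1 in capmatinib (9), and the interaction held 3 above and 3 below 0 (7 and 5). Of single members, Nrp2 (-0.061) and Plxnb2 (-0.010) reversed in NF1-MET; the cause was not tested. In DESeq2's Wald test the lines differed in vehicle by 5 members higher and 9 lower (8 and 15), and in capmatinib by 1 higher (2). With each library left out in turn, the median for capmatinib in NF1-MET lay between 0.22 and 0.34, highest without NF1-MET capmatinib replicate 2, that for the interaction between 0.010 and 0.083, that for the lines in capmatinib between -0.065 and -0.025, and members higher in NF1-MET;sgP53 with capmatinib between 2 and 4, the 4 without NF1-MET;sgP53 capmatinib replicate 1; where this left 1 library in a group, that library was assumed to vary like the others. With the longest transcript as the length of a gene, the class 3 share was 39.4% and 67.9% in NF1-MET with vehicle and capmatinib (27.0% and 55.6% with all exons), and 39.9% and 68.9% in NF1-MET;sgP53 (26.5% and 56.8%). Single called values lost their call in 40 of 520 refits without a library and in 57 of 1043 with another setting. Same-numbered replicates correlated by -0.05 to 0.10 in their deviations. With 2 replicates in a group this cannot exclude that the number pairs them. With the replicate as a block, 24 members rose and 11 fell in NF1-MET, and no call named in the text was lost. Between the lines in vehicle, 9 members were then higher and 17 lower in NF1-MET;sgP53. Over all genes that split went from 1580 higher and 1775 lower to 1905 and 2089. Depth limits Robo1, Slit3, Sema4a and Sema3e, which rest on few counts.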
